A study of Mus musculus with 4 samples.

Results

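The Ly6 surface proteins are a mouse gene family of which 10 names were examined here: Ly6a, Ly6c1, Ly6c2, Ly6d, Ly6e, Ly6f, Ly6g, Ly6h, Ly6i and Ly6k. Members were found as non-control probes whose gene name on the array was one of these. This gave 11 probes for 9 of the 10 genes, among 55681 non-control probes in all; no probe carried the name Ly6c2. The family was selected on the log2 difference of its probes between the groups compared here, so the members' values in that contrast are given as a description, with no test.

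Ly6 proteins are small, cysteine-rich proteins of the Ly6/uPAR fold, most of them held in the outer leaf of the plasma membrane by a glycosylphosphatidylinositol (GPI) anchor. In the mouse most of these genes lie together in a cluster of tandem copies. Several mark blood, endothelial or stem cell populations (Ly6a is the antigen Sca-1, Ly6g the antigen used to recognise neutrophils), and Ly6a, the Ly6c genes and Ly6e are known to be induced by interferons.

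RNA was measured on 4 one-colour Agilent arrays, all on 1 slide. For 2 arrays, called clusters here, pancreatic cells that resembled mesenchymal stromal cells (MSCs), grown out from collagenase-digested pancreas of male Swiss albino mice aged 10 to 12 weeks, were induced for 10 days in serum-free medium with insulin, transferrin and selenium. Taurine was added at 0.3 mM on day 3, and 3 mM taurine, 100 mM nicotinamide and GLP-1 on day 7. For the other 2, called islets, the RNA came from islets of Langerhans of the same strain, sex and age. The labels describe them both as 48 h in culture and as fresh. Pancreata of 2 to 4 mice were pooled, and nothing says that replicates were separate pools. The p-values below thus measure only the spread between these samples, which may be technical. The starting MSC-like cells were not on any array used here, so no change during induction was measured. Genes said below to rise or fall were higher or lower in clusters than in islets.

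Of the non-control spots, 59.7% to 63.6% per array were well above background, and none was saturated. The marker lists differed between the groups. All 10 mesenchymal stromal markers tested were higher in clusters (limma, adjusted p below 0.05; median log2 difference 5.44), and all 6 islet hormone genes, all 6 acinar genes, all 7 epithelial and duct genes and all 11 endothelial genes tested were lower. The mean log2 level of the 6 hormone genes was -4.59 and -5.07 on the cluster arrays, where 3 of the 6 were not well above background, against 3.38 and 1.24 on the islet arrays. The acinar list stood at 8.47 and 9.34 on the islet arrays, above the hormone list on both. Acinar transcripts thus gave strong signals in the RNA labelled islets, and the islet levels below are those of this mixed RNA.

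The 11 member probes lie on chromosome 15 of the mm9 assembly, from 74592551 to 75395727. Whether each probe lies in coding sequence or a UTR was not determined here. Since tandem copies can resemble each other, each probe of 60 bases was compared with all other probes of the array. The Ly6g probe shared a run of 28 bases with a probe for a neighbour in the locus, Gm10238, a predicted pseudogene. Both are shown 5′ to 3′ because the signal of either may include the other transcript, with the shared run in capitals.
Ly6g A_55_P2095311: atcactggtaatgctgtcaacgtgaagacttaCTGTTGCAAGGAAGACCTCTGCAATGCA
Gm10238 A_55_P2129316: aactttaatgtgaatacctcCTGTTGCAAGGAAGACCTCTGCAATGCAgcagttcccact

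The Ly6e probe shared a run of 15 bases with a probe outside the locus. No other member probe shared 15 or more bases with a probe of another gene name, which 30.6% of all probes did. The match to transcripts was not examined, so cross-hybridisation between family members was not tested. The Ly6c1 probe A_55_P1961499 is shown whole because it behaved unlike the other Ly6c1 probe; capitals mark the cysteine codons in its single reading frame free of stop codons. For Ly6a, the other Ly6c1 probe and Ly6e, which were detected on every array and lower in clusters, the first 30 bases identify the probe.
Ly6c1 A_55_P1961499: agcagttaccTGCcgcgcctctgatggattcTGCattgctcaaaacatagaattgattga
Ly6c1 A_55_P2064771, first bases: tattatagtatcaccatccacacataagta
Ly6a A_51_P265495, first bases: tatgagttatagaagctccaaggtgggagt
Ly6e A_55_P2031436, first bases: tatcattgtacccaccttgtactctgttca

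Most of the family was dimmer in clusters than in islets. Of the 11 probes, 10 passed the filter on dim signals (the scanner's flag for well above background had to be set on both arrays of a group). Both cluster arrays lay below both islet arrays for 9 of these 10, the arrays overlapped for 1 (Ly6k), and no probe was higher in clusters. Across all 34974 probes that passed, 53.2% were called by limma in either direction (a test not applied to the members), and both cluster arrays lay below both islet arrays for 41.8% and above them for 37.4%. The rule chose the members from this contrast, and those that passed only through the islets had to be lower in clusters. Log2 differences (clusters minus islets) below -5 were found for 4 members, Ly6a, Ly6c1, Ly6d and Ly6g, taking Ly6d and Ly6g at the bound that their dim cluster signals allow. Ly6c1 counts through 1 of its 2 probes, the other being at -3.55. Among all probes that passed, 2.3% had a measured difference below -5, with no bound applied. The members were selected on this difference, so their count is not set against that share. Under an alternative background correction (normexp), Ly6d and Ly6g were at -2.94 and -3.88.

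**Figure D1:**
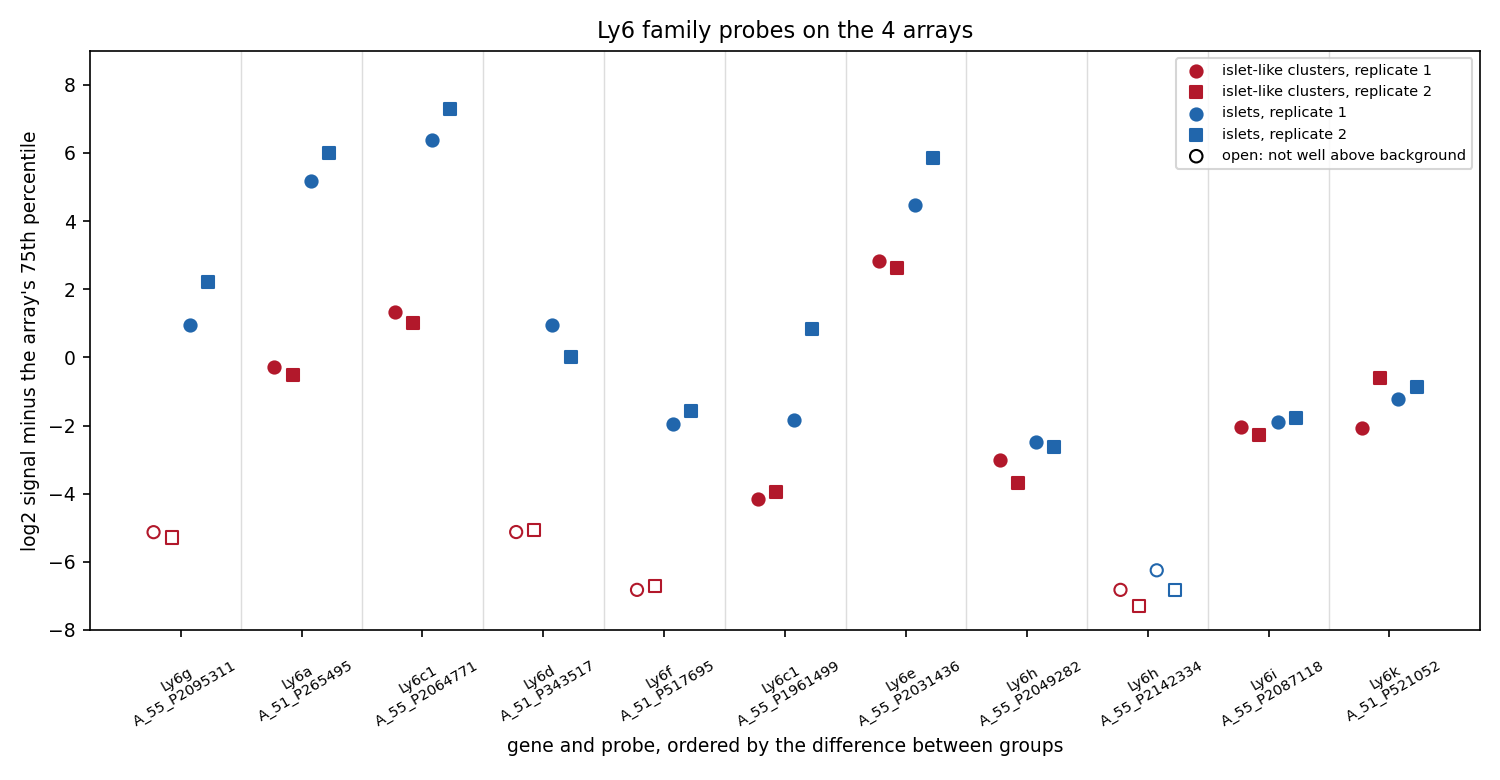
Log2 signal minus the 75th percentile of the array (vertical axis) for the 11 Ly6 probes (horizontal axis), with 1 point for each of the 4 arrays; open points were not well above background. Cluster points lie far below islet points for Ly6g, Ly6a, Ly6d, Ly6f and 1 Ly6c1 probe, while the points of Ly6i lie close together and those of Ly6k overlap.

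Ly6a encodes Sca-1, a marker of haematopoietic stem cells that is also found on endothelium and on many mouse MSCs. Its probe (chr15:74825553-74825612, minus strand) had a processed signal of 271 and 270 on the cluster arrays and of 11839 and 16059 on the islet arrays. Both groups were well above background and far apart. After scaling by the 75th percentile of each array, the log2 level was -0.40 ± 0.17 in clusters and 5.60 ± 0.58 in islets (mean ± SD, n = 2 each). The log2 difference was -6.00 ± 0.31 (SE), a level 63.9-fold higher in islets. Here and below, the SE uses the moderated variance of the fit and is not the spread of the arrays. The 10 mesenchymal markers ran the other way: Thy1, a GPI-anchored surface protein used with Sca-1 to mark MSCs, had signals of 41542 and 38499 in clusters and 194 and 155 in islets.

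Ly6c1 encodes a Ly-6C antigen, found on monocytes, some T cells and endothelial cells. Its probe A_55_P2064771 (chr15:74875495-74875554, minus strand), gave 831 and 789 in clusters and 26893 and 39361 in islets. The log2 levels were 1.18 ± 0.22 and 6.83 ± 0.66 (mean ± SD, n = 2), a difference of -5.65 ± 0.33 (SE) or 50.3-fold. The islet replicates differed by 1.91-fold after scaling.

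The other Ly6c1 probe, A_55_P1961499 (chr15:74877785-74877844), gave 18.5 and 25.1 in clusters and 91.1 and 446 in islets. Here the islet replicates stood 6.39-fold apart after scaling, replicate 2 above replicate 1. The difference was -3.55 ± 0.71 (moderated SE), but -2.21 without islets replicate 2 and -4.89 without islets replicate 1. The SD was 0.14 in clusters and 1.89 in islets (n = 2 each). With normexp it was -2.06. Both probes had the same direction, and the size of the second moved with the islet array used and with the background correction. With no probe named Ly6c2, the level of that near copy was not measured separately, and its share in the Ly6c1 signals was not tested.

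Ly6g encodes the neutrophil antigen recognised by the antibody 1A8. Its probe (chr15:74989023-74989082, plus strand) gave 9.40 and 9.95 in clusters, not well above background, and 633 and 1167 in islets. The cluster values are therefore only an upper limit. At its bound the islet level was 105-fold higher. For this bound the dim group was set per array at the lowest signal of any probe well above background. The probe's own signal was used if that was higher. Every "at least" below is such a bound and allows for dim signals only. It does not cover the spread of the brighter group or the background correction. The Ly6g difference ranged from -7.43 to -6.17 with 1 array left out and was -3.88 with normexp. The measured log2 means were -5.21 ± 0.11 and 1.59 ± 0.90 (SD, n = 2). The pseudogene probe that shares the 28 bases gave 36.4 and 27.2 in clusters and 1539 and 1725 in islets.

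The neutrophil markers did not follow a single direction: of 7 tested, 3 were higher in clusters (S100a8, Camp and Csf3r), 3 were lower (S100a9, Ltf and Elane) and Mpo did not pass. Like Ly6g, they were brighter on islets replicate 2, by 1.68 on the log2 scale for the median gene. S100a9, a calcium-binding protein abundant in neutrophils, gave 115 and 2871 on the islet arrays. Whether cells of this type had a part in the Ly6g result was not tested.

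Ly6d, a marker of early B cell progenitors and of squamous epithelium, had its probe at chr15:74592551-74592610. Its signals were 9.42 and 11.5 in clusters, not well above background, and 627 and 253 in islets. The measured log2 difference was -5.58, a level 47.8-fold higher in islets, and the bound was the same. With 1 array left out the difference ranged from -6.04 to -5.12, and with normexp it was -2.94. Ly6d was brighter on islets replicate 1, by 0.93 on the log2 scale, whereas 8 of the 10 probes were brighter on islets replicate 2. The epithelial and duct list, in which all 7 genes were lower in clusters, moved the same way between the groups. So did the hormone, acinar and endothelial lists. The median islet difference, replicate 1 minus replicate 2, was -0.065 for the epithelial and 2.31 for the hormone list. It was -0.76 for the acinar and 0.15 for the endothelial list. The part of these lists in the Ly6d result was not tested.

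Ly6f had signals of 2.91 and 3.69 in clusters, not well above background, and 83.9 and 84.0 in islets (probe at chr15:75102462-75102522). Its islet level was at least 10.9-fold higher. The measured log2 difference of -5.01 ± 0.25 (SE) became -1.37 with normexp background correction and its offset of 50. The same setting gave -3.88 for Ly6g and -2.94 for Ly6d, so the size for the dim members depends on how background is handled. Nothing is read from their direction, since they passed the filter only through the islets.

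Ly6e, an interferon-induced member that serves in the placenta as the receptor of syncytin-A, was detected in both groups. Its probe (chr15:74789592-74789651, plus strand) gave 2357 and 2394 in clusters and 7219 and 14541 in islets. The cluster arrays were nearly equal, and the islet arrays stood 2.63-fold apart after scaling. The log2 levels of 2.73 ± 0.15 and 5.17 ± 0.99 (SD, n = 2) gave a difference of -2.43 ± 0.42 (SE) or 5.40-fold. It ranged from -3.13 to -1.74 when 1 array was left out.

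The remaining members differed little. Ly6i (chr15:74810484-74810543) gave 79.2 and 79.7 in clusters and 87.0 and 72.4 in islets. Before scaling these signals interleave, and after scaling the clusters lay just below the islets, by 0.32 ± 0.23 (SE) on the log2 scale. Its difference stayed between -0.48 and -0.13 under the alternatives run.

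Ly6h, a brain-enriched member that acts on nicotinic acetylcholine receptors, has a pair of probes. A_55_P2049282 (chr15:75395175-75395234) gave 41.1 and 30.3 in clusters and 58.5 and 40.6 in islets, a log2 difference of -0.79 ± 0.28 (SE) or 1.73-fold, and -0.40 with normexp. A_55_P2142334 (chr15:75395668-75395727) was not well above background on any array, with signals from 2.19 to 4.28.

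Ly6k, known from testis and sperm, gave 77.8 and 257 in clusters and 139 and 136 in islets (chr15:74627529-74627588). The cluster replicates stood 2.80-fold apart and enclosed the islet values. The difference of -0.28 ± 0.45 (SE) became 0.46 without clusters replicate 1 and -1.03 without clusters replicate 2, so no direction can be given for Ly6k.

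These are whole samples of mixed cells, so fewer cells carrying a Ly6 transcript and less transcript per cell cannot be told apart. Like the hormone, acinar and epithelial lists, the endothelial list was lower in clusters. All 11 endothelial genes tested were lower (limma), and 6 of them were dim on both cluster arrays. Their median log2 difference was -4.47, or -3.45 with the dim genes at their bound. Their mean log2 level was -3.76 and -3.81 in clusters and 0.90 and 0.77 in islets. Robo4, an endothelial guidance receptor, was 204-fold higher in islets, as measured and at its bound (limma, adjusted p = 1.48e-08). Kdr, a VEGF receptor, differed by only -0.88 (limma, adjusted p = 0.0142).

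Of the 10 monocyte and macrophage markers tested, 4 fell (Aif1, Cd68, Cd14 and Ptprc), Tyrobp rose and 5 did not pass, where 54.8% of all genes were called, 28.2% lower and 26.6% higher. Mean levels of the groups overlapped for the neutrophil and the lymphocyte list, and 1 of 5 lymphocyte markers was lower in clusters. The part of these cell types in the Ly6 results was not tested.

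**Figure D2:**
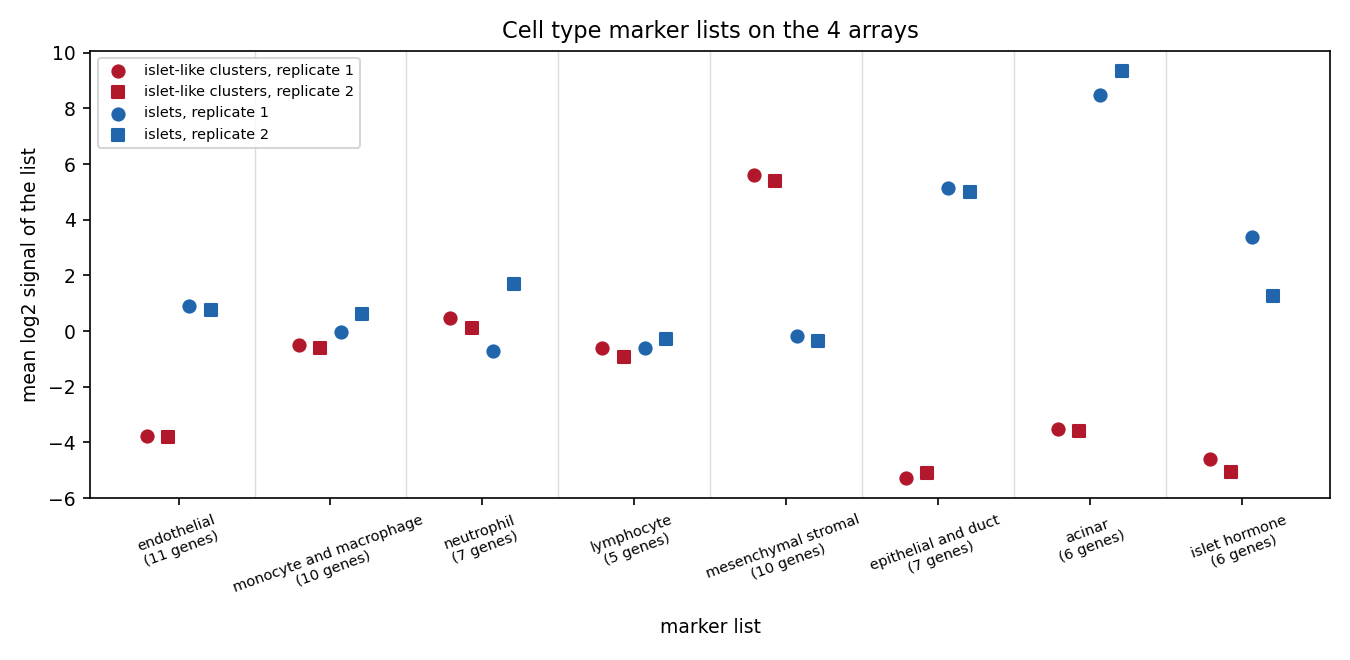
Mean log2 signal, scaled by the 75th percentile of the array, of the tested genes of 8 cell type marker lists (horizontal axis, with the number of genes) on each of the 4 arrays. Endothelial, epithelial, acinar and hormone lists lie lower on both cluster arrays, the mesenchymal list lies higher, and the neutrophil list is spread most between the islet replicates relative to the gap between groups.

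The other genes of the locus were read from the positions in the files. Between the outermost member probes, which lie 803177 bases apart, 20 probes of 19 other gene names were found, and 11 passed the filter. Both cluster arrays lay below both islet arrays for 7 of these 11, none lay above, and 4 overlapped, beside 41.8% below and 37.4% above among all probes. Of the 7, Gml, I830127L07Rik and Gm3142 were not well above background on 1 or both cluster arrays. They passed only through the islets and so could hardly lie elsewhere, and nothing is read from the count. The probes were not independent of each other, since some belong to copies of the same ancestral gene.

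Of the neighbours detected on all 4 arrays, 2 had a log2 difference below -4. Gm10238 differed by -6.02 ± 0.31 (SE). 9030619P08Rik gave 41.3 and 45.3 in clusters and 1073 and 1465 in islets, a difference of -5.18 ± 0.31 (SE). Both probes were high on both islet arrays and low on both cluster arrays. I830127L07Rik, named Ly6a2 in RefSeq, gave 61.9 and 55.3 in islets and had only an upper limit in clusters, which put it at least 7.60-fold lower there. Gm3142 gave 2.91 and 38.1 in clusters, the first not well above background, and 116 and 183 in islets.

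Probes with large and with small differences were interspersed. Ly6k, Ly6i, the 2010109I03Rik transcript (Ly6m in RefSeq) and BC171937 had differences between -0.32 and 0.08, although each lies within the same span as Ly6d, Ly6a and Ly6c1. Among the members the Ly6i probe lies closest to that of Ly6a, which differed by -6.00.

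**Figure D3:**
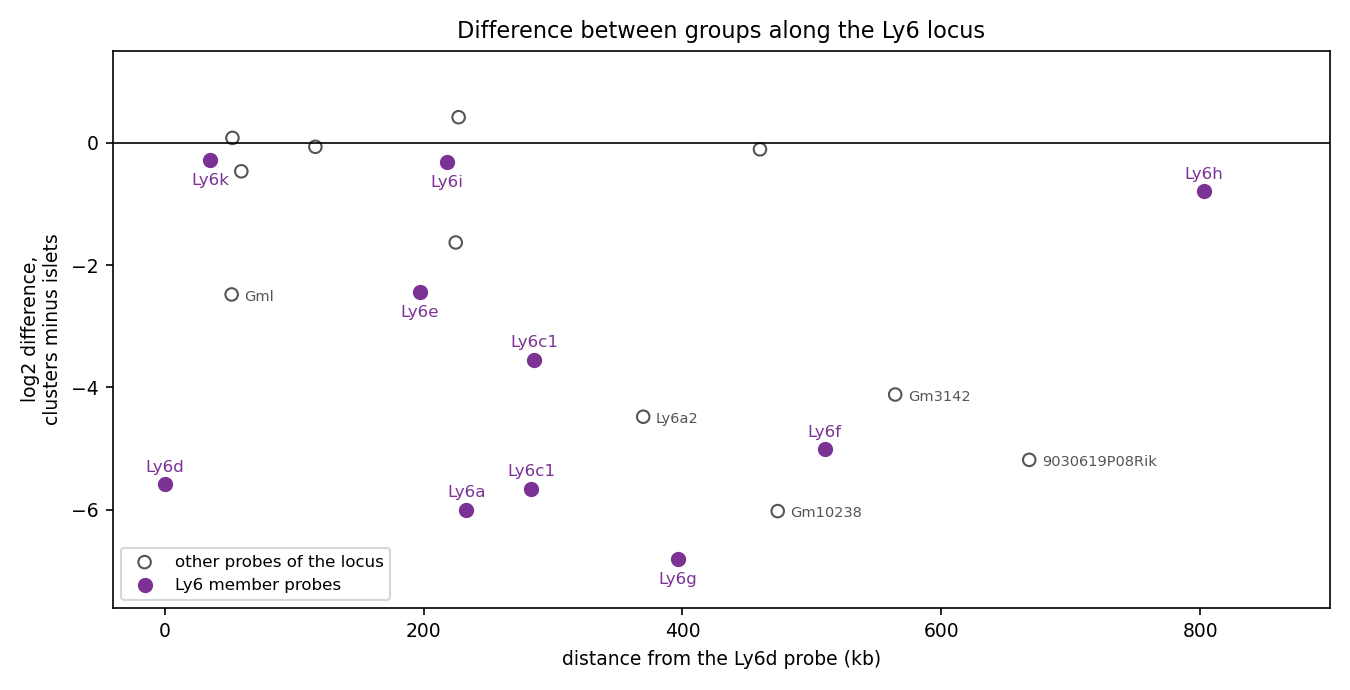
Log2 difference (clusters minus islets, vertical axis) of the 10 Ly6 probes and the 11 other probes of the locus that passed the filter, by distance in kb from the Ly6d probe. Probes near 0 (Ly6k, Ly6i and several neighbours) alternate with probes far below 0, such as Ly6a, Ly6c1 and Gm10238; points of Ly6d, Ly6f, Ly6g, Gml and Ly6a2 (both cluster arrays) and of Gm3142 (1 cluster array) rest on signals not well above background and are no exact differences.

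Sequence upstream of the gene was given for 4 of the members by RefSeq (GRCm38.p6): Ly6c1, Ly6c2, Ly6f and Ly6g. The stretches for Ly6c1 and Ly6g, both lower in clusters, are shown because they share a run of 29 bases, in capitals, which starts 73 bases before the Ly6c1 gene and 112 bases before the Ly6g gene. They are printed 5′ to 3′ on the strand of the gene and end at the outermost start of the RefSeq gene.
Ly6c1, chr15:75048921-75049087 (GRCm38.p6, minus strand): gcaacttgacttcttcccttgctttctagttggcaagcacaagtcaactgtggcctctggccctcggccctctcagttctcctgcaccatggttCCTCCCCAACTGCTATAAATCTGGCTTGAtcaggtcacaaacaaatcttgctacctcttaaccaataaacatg
Ly6g, chr15:75155011-75155260 (GRCm38.p6, plus strand): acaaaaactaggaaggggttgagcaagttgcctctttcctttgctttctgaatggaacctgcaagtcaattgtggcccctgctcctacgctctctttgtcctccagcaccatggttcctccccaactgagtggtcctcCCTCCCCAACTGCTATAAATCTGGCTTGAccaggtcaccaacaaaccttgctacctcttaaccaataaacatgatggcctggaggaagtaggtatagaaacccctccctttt

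The Ly6f stretch shared a run of 26 bases with that of Ly6g. Windows of 250 bases before each start of the 4 genes were searched on both strands for the interferon-gamma site GAS (TTCNNNGAA) and the core of the interferon response element ISRE (GAAA, any 2 bases, GAAA), which can overlap in their GAA letters. Neither occurred in any of them. Of all 32851 windows of that length, 7.02% held the GAS letters and 2.98% the ISRE letters. This says only that these letters are not in these windows.

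Outside the 10 members, the Ly6/uPAR superfamily includes receptors, secreted toxin-like proteins and complement regulators. Of 31 such genes listed, 22 were tested: 3 were higher in clusters, 10 were lower and 9 did not pass (limma, Benjamini-Hochberg adjusted p below 0.05 over all 24596 genes). Across all genes, 54.8% were called, 26.6% higher and 28.2% lower. The median log2 difference of the list was -0.55, against -0.10 for all genes. When only probes well above background on all 4 arrays were used, 5 genes of this list were lower and 3 higher, and its median was 0.0024.

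Among the genes that fell, Ly6g6d, a member encoded in the major histocompatibility region, gave 23.4 and 5.83 in clusters and 459 and 340 in islets. Its log2 difference was -5.41 ± 0.57 (SE, limma adjusted p = 3.97e-05), with 1 cluster array not well above background; it was -6.53 without clusters replicate 1 and -4.29 without clusters replicate 2. Lypd3, a GPI-anchored protein of squamous epithelium, fell by 3.33 on the log2 scale (limma adjusted p = 5.73e-05), with 1 cluster array not well above background. With normexp the difference was -1.46 for Lypd3, -2.79 for Ly6g6d and -0.90 for Ly6g6e. Ly6g6e, next to Ly6g6d, was at least 5.48-fold lower, and Ly6g5c at least 1.68-fold lower. The call of Ly6g5c was lost with normexp (difference -0.38, adjusted p = 0.188).

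The genes that rose were Cd59a, Lynx1 and Cd177. Cd59a, which blocks the membrane attack complex of complement, gave 2698 and 2703 in clusters and 220 and 175 in islets. The log2 difference was 3.46 ± 0.23 (SE, limma adjusted p = 1.68e-06). Lynx1, a GPI-anchored modulator of nicotinic receptors, rose by 2.43 ± 0.24 (SE, limma adjusted p = 2.51e-05). Cd177, a neutrophil surface protein, rose by 2.16 ± 0.30 (SE, limma adjusted p = 0.000244), and by 0.96 with normexp. Its signals were 164 and 132 in clusters and 23.9 and 28.7 in islets.

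Plaur, the urokinase receptor, gave 4657 and 4839 in clusters and 3950 and 1683 in islets and did not pass the test (log2 difference 0.56 ± 0.30, limma adjusted p = 0.151).

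Because several members respond to interferon, the genes of that pathway were counted too. Of 27 tested, 18 were lower in clusters, 6 were higher and 3 did not pass; the median log2 difference was -1.84. Across all genes 28.2% were lower and 26.6% higher. The 6 were Socs1, Ifnar1, Ifnar2, Ifngr2, Jak1 and Cxcl10. Those called higher numbered 2 without islets replicate 1 and 3 without islets replicate 2 or without clusters replicate 2.

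Irf7, the transcription factor that amplifies the interferon response, gave 26.5 and 33.9 in clusters and 1094 and 1255 in islets, a log2 difference of -5.61 ± 0.26 (SE, limma adjusted p = 1.59e-07). Usp18, which removes ISG15 from proteins, differed by -4.48 ± 0.39 (SE) and Rsad2, the antiviral enzyme viperin, by -4.33 ± 0.37 (SE), with limma adjusted p-values of 9.43e-06 and 9.29e-06. Mx1, an antiviral GTPase, was at least 16.3-fold lower. With normexp the differences of Irf7, Rsad2 and Mx1 were -4.12, -3.67 and -1.84. That of Usp18 was -3.82 without clusters replicate 1 and -5.14 without clusters replicate 2.

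Socs1, an inhibitor of cytokine receptor signalling, rose most in this list: 3346 and 3287 in clusters against 288 and 273 in islets, a log2 difference of 3.24 ± 0.24 (SE, limma adjusted p = 3.73e-06). The type I receptor chains Ifnar1 and Ifnar2 rose by 1.91 (1.11 with the mean of its probes) and 1.15, with limma adjusted p-values of 0.00012 and 0.00268. The chemokine Cxcl10 rose by 1.41 (limma adjusted p = 0.0057). The calls of Ifnar2 and Cxcl10 were each lost when single arrays were left out, with adjusted p-values of up to 0.129 and 0.214.

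**Figure D4:**
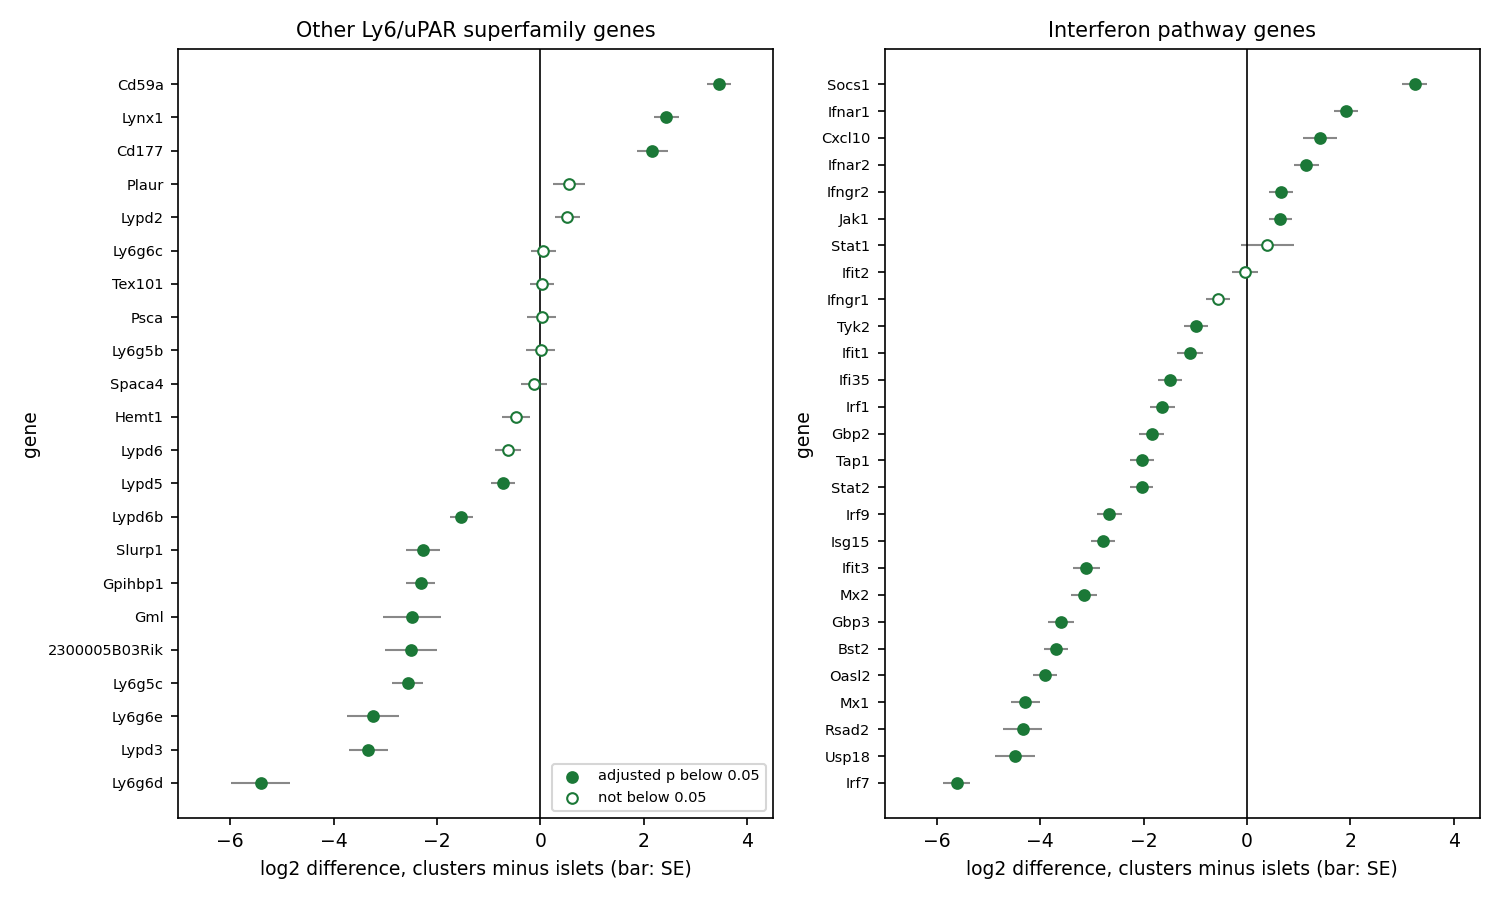
Log2 difference (clusters minus islets, horizontal axis, bars are the SE of the fit) of each tested gene (vertical axis) among the other Ly6/uPAR genes, left, and the interferon pathway genes, right; filled points have an adjusted p below 0.05. Of the 27 interferon genes 18 lie below 0 with filled points, against 10 of 22 on the left; Ly6g6e, Ly6g5c, Gml and Mx1 were not well above background in clusters.

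For members well above background on all arrays, the genes of most similar profile were found by Euclidean distance between log2 values over the 4 arrays, each centred on its own mean. The genes compared were not required to be detected in both groups. For Ly6a, 18 genes lay within a distance of 0.5, of which 8 were well above background on all 4 arrays. The nearest 3 (Sntg2, 1700123K08Rik and Klk1b16) were not well above background on either cluster array, so their distances have no exact meaning and their order is not read. Nearest to Ly6c1 (A_55_P2064771) were Atic, an enzyme of purine synthesis (0.12), Klk1b21 and Tmem212, the last not well above background in clusters; of 23 genes within 0.5, 13 were detected on all arrays. Nearest to Ly6e were Cryab, a small heat shock protein (0.17), and transcripts without a gene symbol, with 59 genes within 0.5, 41 of them detected on all arrays.

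For Ly6k the nearest were Hrh4, Zfp873 and Cldnd2 (34 genes within 0.5). For Ly6h and Ly6i, with almost flat profiles, 2952 and 6847 genes lay within 0.5, so nearness says little. With 4 arrays in 2 groups, a small distance mainly reflects a similar difference between the groups.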

How the data were processed

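The deposited scanner files give linear intensity per spot, background-subtracted and detrended by Agilent Feature Extraction 11.5.1.1, per the file headers. Probe names, mm9 positions and sequences come from the same files. The authors' value table holds log2 values. Set against the scanner values array by array, it correlated at r = 0.99995 or more, so its direction is that of log2 signal without gene centring. The medians of its columns were -3.61, -3.70, -3.50 and -3.37. It served only as an alternative.

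Control and non-uniform spots were left out, which removed 490 of 55681 probes. Values are log2 of processed intensity minus each array's 75th percentile. Probes flagged as well above background on both arrays of a group were kept (34974), and a gene's brightest probe stood for it (24596 genes). The contrast of clusters minus islets was fitted in R 4.3.3 by limma 3.58.1, using lmFit and eBayes without covariates (2-sided, 2 residual degrees of freedom), with Benjamini-Hochberg adjustment and a threshold of 0.05. For a member the fit gives only the SE. Every SE given uses the variance moderated by eBayes over all features (9.06 total degrees of freedom in the fit over genes). Where replicates stood far apart, it is smaller than an SE from the 4 arrays alone. The scripts were tested on simulated data, with 50 genes given each size of log2 difference. Those at 2 and -2 were called in 36% and 66% of cases, and those at 4 and -4 in 88% and 86%. A gene that did not pass may therefore still differ.

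The members and gene lists were chosen with earlier results of these data known. In each list, up to 4 called genes per direction with the largest difference were named; other genes named (such as Plaur and markers) were chosen after their values were seen. RefSeq (GRCm38.p6) supplied later symbols and upstream sequence. Alternatives were 16 other settings of background correction, scaling, filters, probe choice, variance model, value table, replicate block and left-out arrays. The number of arrays limits the precision.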

Additional observations from a re-analysis of the deposited data

How the results depend on the processing

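The 9 member probes lower in clusters kept that direction under all alternatives that gave them a value, and Ly6k did not. These 9 were grouped by their direction in this same contrast. Of them, 3 (Ly6d, Ly6f and Ly6g) passed the filter only through the islets, so nothing is read from their direction. With 1 array left out, the calls over all genes ranged from 7800 to 10126 (13490 with all arrays), those over all probes from 10729 to 14044 (18591 with all), those of the GPI anchor list from 6 to 10 (14 with all) and those of the binding partner list from 1 to 2 (3 with all). In these fits the lone sample of a group is assumed to vary like the other group. The other Ly6/uPAR list had 8 calls among probes detected on each of the 4 arrays (13 with the usual filter, fewer genes tested). The binding partner list had 1 call with normexp and 1 with the replicate number as a block; the cause was not tested. Deviations of clusters 1 and islets 1 from their group means correlated at r = -0.023 over genes. This showed no shared deviation, but 2 arrays per group cannot exclude that samples were paired. The replicate block gave 11307 calls. Scaling to the array median moved the median difference of all genes from -0.10 to 0.095 and scaling over detected probes to -0.25, with 41.9% and 58.2% of calls lower in clusters (51.5% otherwise). Slide as a block was not run, since all arrays share 1 slide. Signal near background limits Ly6d, Ly6f, Ly6g, Ly6h and the Ly6c1 probe A_55_P1961499.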

Other observations

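Most Ly6 proteins need a GPI anchor, and the genes that build and attach it showed no common direction. Of 28 tested, 7 were higher in clusters, 7 were lower and 14 did not pass (limma, adjusted p below 0.05; 54.8% of all genes were called), with a median log2 difference of 0.20. The 14 calls became 9 without clusters replicate 1, 6 without islets replicate 1 and 7 without islets replicate 2. Pigo, an ethanolamine phosphate transferase of the pathway, fell most: 780 and 834 in clusters against 5813 and 3442 in islets, a log2 difference of -2.80 ± 0.24 (SE, adjusted p = 1.04e-05). Pigl, the de-acetylase of an early step, fell by 2.41, and Pgap1, which remodels the attached anchor, fell by 1.84. Pigl was not well above background on 1 cluster array and differed by -0.74 with normexp; Pgap1 differed by -1.23 with normexp and, averaged over its probes, -1.21. Pigb, a mannosyltransferase, was at least 2.84-fold lower, a call lost with normexp (adjusted p = 0.0667). The mannosyltransferase Pigv rose by 1.85 and Pigc, of the first step, by 1.63. Pigs, of the transamidase that attaches the anchor, rose by 0.99 and Dpm3 by 0.86; both calls were lost without islets replicate 1 or 2 (adjusted p from 0.161 to 0.307).

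Of 8 tested genes for proteins that bind Ly6/uPAR family members, Lpl, Chrnb2 and Chrnb4 were called (3 of 8, where 54.8% of all genes were called). Lpl, the lipoprotein lipase that Gpihbp1 carries across endothelium, gave 55783 and 61025 in clusters and 706 and 553 in islets, a log2 difference of 6.22 ± 0.23 (SE, adjusted p = 3.41e-08). Gpihbp1 itself ran the other way, with 189 and 186 in clusters and 668 and 831 in islets (difference -2.32 ± 0.29, SE, adjusted p = 0.000109). The nicotinic receptor subunits Chrnb2 and Chrnb4 were lower by small amounts (-0.67 and -0.63), with calls lost under most alternatives (adjusted p up to 0.46). Syna, the syncytin-A bound by Ly6e, gave 38.1 and 30.4 in clusters and 28.1 and 8.96 in islets and did not pass (adjusted p = 0.125).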
